A study of Homo sapiens with 4 samples.

Results

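The nuclear genes for the subunits of mitochondrial complex I were examined in AGS, a cell line established from a human gastric adenocarcinoma, with and without exposure to lipopolysaccharide (LPS) of Helicobacter pylori. Members were chosen by name: a probe set counted when the platform annotation gave it a single symbol of the NDUFA, NDUFB, NDUFC, NDUFS, NDUFV or NDUFAB families, and the brightest probe set over all arrays stood for its gene. This gave 33 of 19775 genes, measured by 62 probe sets. Assembly factors, whose symbols begin with NDUFAF, were not members. NDUFS5, NDUFS8 and NDUFC2 were annotated only on probe sets shared with other symbols and were not members.

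The LPS group held 2 arrays of AGS cells kept for 8 h in medium with 10 µg/ml H. pylori LPS. The untreated group held 2 arrays of AGS cells that received fresh medium for the same time. Experiments were repeated independently, according to the design text, and each label carries a replicate number, but whether equal numbers mark a shared experiment is not said. One cell line was used, and p-values measure only the spread between these arrays. All values are log2 expression as deposited.

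Complex I, or NADH:ubiquinone oxidoreductase, is the entry point of the respiratory chain: it oxidises NADH, passes the electrons to ubiquinone and pumps protons across the inner mitochondrial membrane. It is L-shaped, with a matrix arm that carries the flavin and the iron-sulfur clusters and a membrane arm that pumps. The core subunits do the catalysis and are conserved from bacteria, and the accessory subunits surround and stabilise them. The hydrophobic core subunits of the membrane arm are encoded in mitochondrial DNA, so every member here belongs to the matrix arm core or to the accessory shell.

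The stretches before the start sites are shown for a few members, chosen by array values or by motif matches. NDUFV1, NDUFB7, NDUFA13 and NDUFA5 were among the 6 members that differed most by replicate number. NDUFA5 had the smallest p by treatment, and NDUFA8 held more matches to the NRF1 letters than any other member. Whether these stretches bear on the array values was not tested. Each line gives 100 bases that end just before the annotated start, from RefSeq (GRCh38.p14), 5′ to 3′ on the strand of the gene. Capitals mark matches to TGCGCA, the palindromic core of the site of nuclear respiratory factor 1 (NRF1), CCGGAAG, the core of ETS sites as bound by GABPA, or ATGGCGG, the core of YY1 sites.
NDUFV1, chr11:67606836-67606935, plus strand: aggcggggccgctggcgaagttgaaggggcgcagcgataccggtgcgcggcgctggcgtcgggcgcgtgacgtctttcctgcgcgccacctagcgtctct
NDUFB7, chr19:14572067-14572166, minus strand: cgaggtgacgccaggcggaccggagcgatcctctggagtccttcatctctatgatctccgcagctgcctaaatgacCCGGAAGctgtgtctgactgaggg
NDUFA13, chr19:19516125-19516224, plus strand: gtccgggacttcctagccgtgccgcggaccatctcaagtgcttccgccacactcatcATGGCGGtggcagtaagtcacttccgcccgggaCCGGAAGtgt
NDUFA5, chr7:123601652-123601751, minus strand: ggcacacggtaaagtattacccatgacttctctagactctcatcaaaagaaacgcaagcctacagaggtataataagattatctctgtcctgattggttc
NDUFA8, chr9:122159780-122159879, minus strand: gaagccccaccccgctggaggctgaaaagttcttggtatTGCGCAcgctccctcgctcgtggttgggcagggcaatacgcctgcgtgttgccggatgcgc
NDUFA8 held a further match that spans the start and another just behind it, which are not in capitals here.

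Promoter windows of 300 bases, 250 before the start and 50 after it, were found for 31 of the 33 members, and 4 members had more than one window. A gene counted when any of its windows held the letters on either strand. YY1 letters stood in the windows of 14 of the 31 members (45.2%), against 9.22% of the 15384 genes on the arrays that had a window and 6.66% of all 27305 genes in the table. Most of these matches lay behind the start: in the last 50 bases, a window chosen after seeing the data, they were found in 13 of 31 members (41.9%), against 5.15% of the genes on the arrays. In the 250 bases before the start they were found in 3 of 31 (9.68%), against 4.21%. NRF1 letters stood in 10 of 31 members (32.3%), against 12.9% of the genes on the arrays and 9.76% of the table. ETS letters stood in 5 of 31 (16.1%), against 16.6% of the genes on the arrays and 12.2% of the table. No motif searched contains another, and a match is a run of letters, not a bound site.

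**Figure D1:**
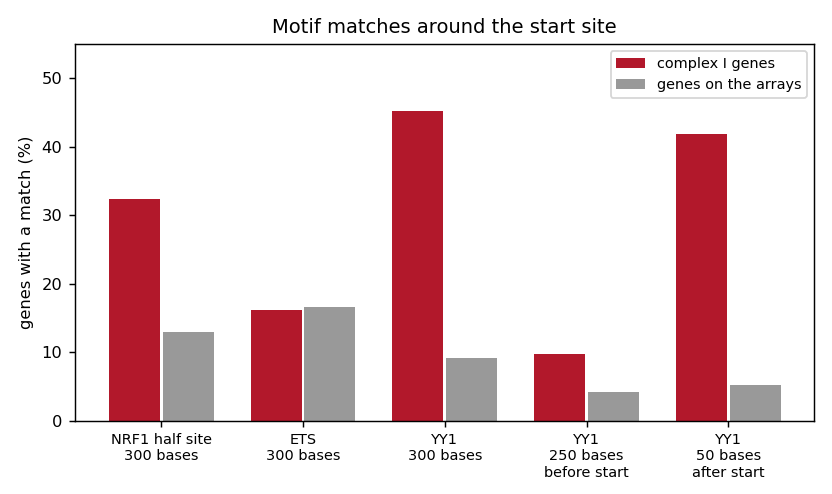
Share of genes (%, vertical axis from 0) with a match to each motif in the named window, for 31 complex I genes (red) and 15384 genes on the arrays (grey). The YY1 letters reach 41.9% of complex I genes in the 50 bases after the start, against 5.15% of the genes on the arrays, and the ETS bars stand at 16.1% and 16.6%.

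The 30-base sites below hold the YY1 letters, in capitals on either strand, behind the start of the members whose array values are given in full. In 5 of them the run reads ATGGCGG on the gene's strand, and its first triplet, ATG, has the letters of a start codon of translation. Whether these matches are the start codons was not tested.
NDUFS3, chr11:47579080-47579109, plus strand: catctgagtaacATGGCGGcggcggcggta
NDUFS4, chr5:53560651-53560680, plus strand: gcctgcagcaagATGGCGGcggtgtcaatg
NDUFS7, chr19:1383915-1383944, plus strand: gccgaggccaagATGGCGGtgctgtcaggt
NDUFA5, chr7:123557778-123557807, minus strand: gttggcgctgtcATGGCGGgtgtgctgaag
NDUFA13, chr19:19516227-19516256, plus strand: gatactgcgagtATGGCGGcgtcaaaggtg
NDUFS1, chr2:206159413-206159442, minus strand: agttagccgaggCCGCCATattgaataagc
NDUFV2, chr18:9102719-9102748, plus strand: gggaaggtgaacagtgtggcCCGCCATgtt
The NDUFA5 site belongs to its second listed window, at another annotated start than the first shown above. The bases before that second start are not shown.

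All 33 members gave a signal above the median over genes of 7.25, with means over the 4 arrays between 9.03 for NDUFB7 and 12.94 for NDUFAB1. The median over members was 11.41 and 11.42 on the LPS arrays, against 11.47 and 11.42 on the untreated arrays. Probe sets differ in their response, so these levels do not rank the transcripts. Across the array set, 6 of 6 measured epithelial markers were bright, with means from 10.05 for the dimmest to 14.40 for KRT18. The 3 measured leukocyte markers and the 5 fibroblast and endothelial markers had means of 4.88 to 7.12 and 3.76 to 7.13, all below the median over genes. Of the 2 red cell markers, HBB had a mean of 7.47 and ALAS2 of 5.57. Arrays correlated at 0.996 to 0.998 across genes, which are not independent replicates.

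**Figure D2:**
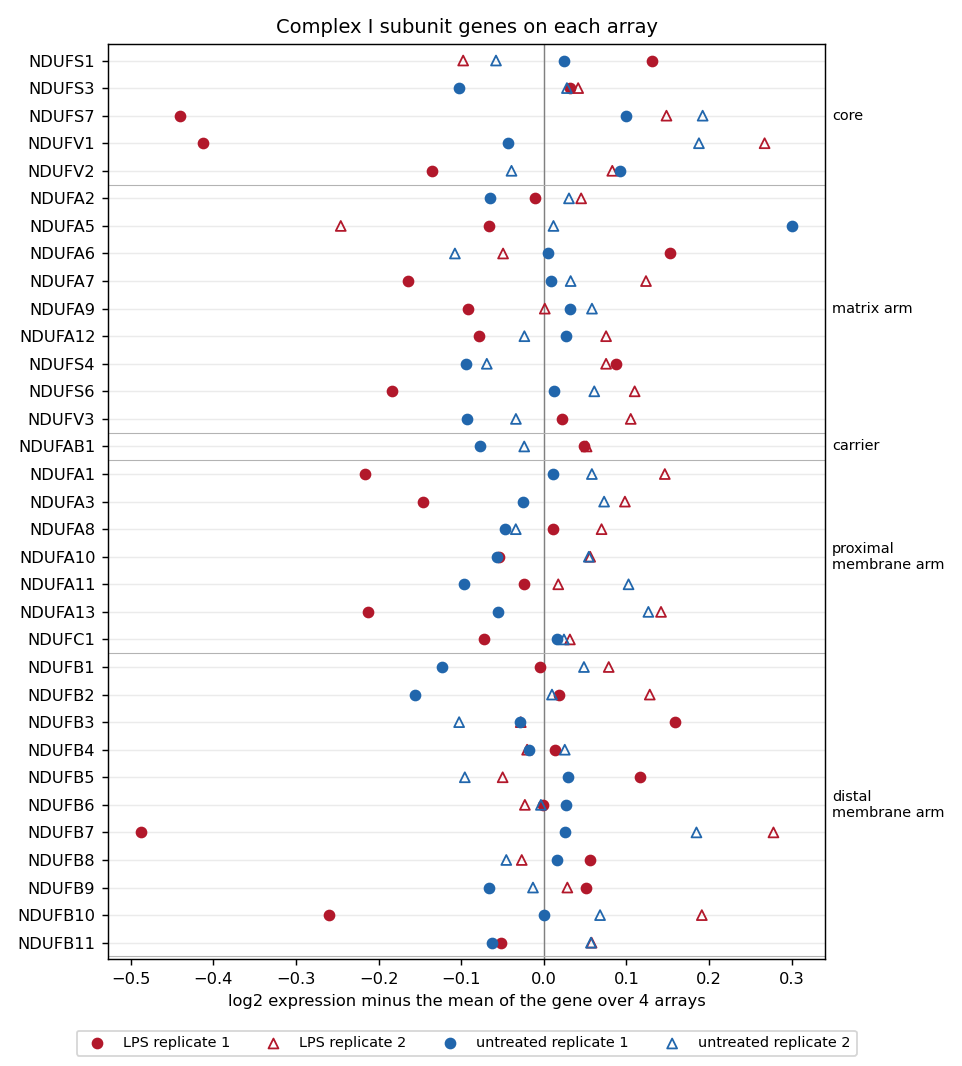
Log2 expression of each complex I gene minus its mean over the 4 arrays (horizontal axis), with LPS arrays in red, untreated arrays in blue, replicate 1 as filled circles and replicate 2 as open triangles. LPS replicate 1 is the leftmost array for 13 of the 33 genes, and NDUFB7, NDUFS7 and NDUFV1 lie farthest to the left on it.

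Differences between LPS and untreated arrays in complex I transcripts were at most 0.31 on the log2 scale in either direction. None of the 33 members passed the adjusted test in either direction (limma, adjusted p = 1 for each), where 0% of all genes passed. At an unadjusted p under 0.05 there was 1 member, NDUFA5, or 3.03% of members against 2.83% of all genes. Differences ran from -0.31 to 0.16 on the log2 scale, or ratios of 0.805 to 1.12. They were above 0 for 16 members (48.5%, against 56.5% of all genes) and below for 17. The median was -0.003, against 0.017 over all genes. The LPS arrays lay wholly above the untreated ones for 8 members (24.2%, against 17.9% of all genes) and wholly below for 2 (6.06%, against 11.7%). Together that was 30.3% of members against 29.6% of all genes.

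The 95% interval of the difference stayed within 1.5-fold in both directions for 29 of the 33 members (87.9%, against 95.5% of all genes). The other 4 were NDUFA5, NDUFB7, NDUFS7 and NDUFV1, whose lower bounds reached ratios of 0.599 to 0.661. No upper bound exceeded a ratio of 1.30.

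**Figure D3:**
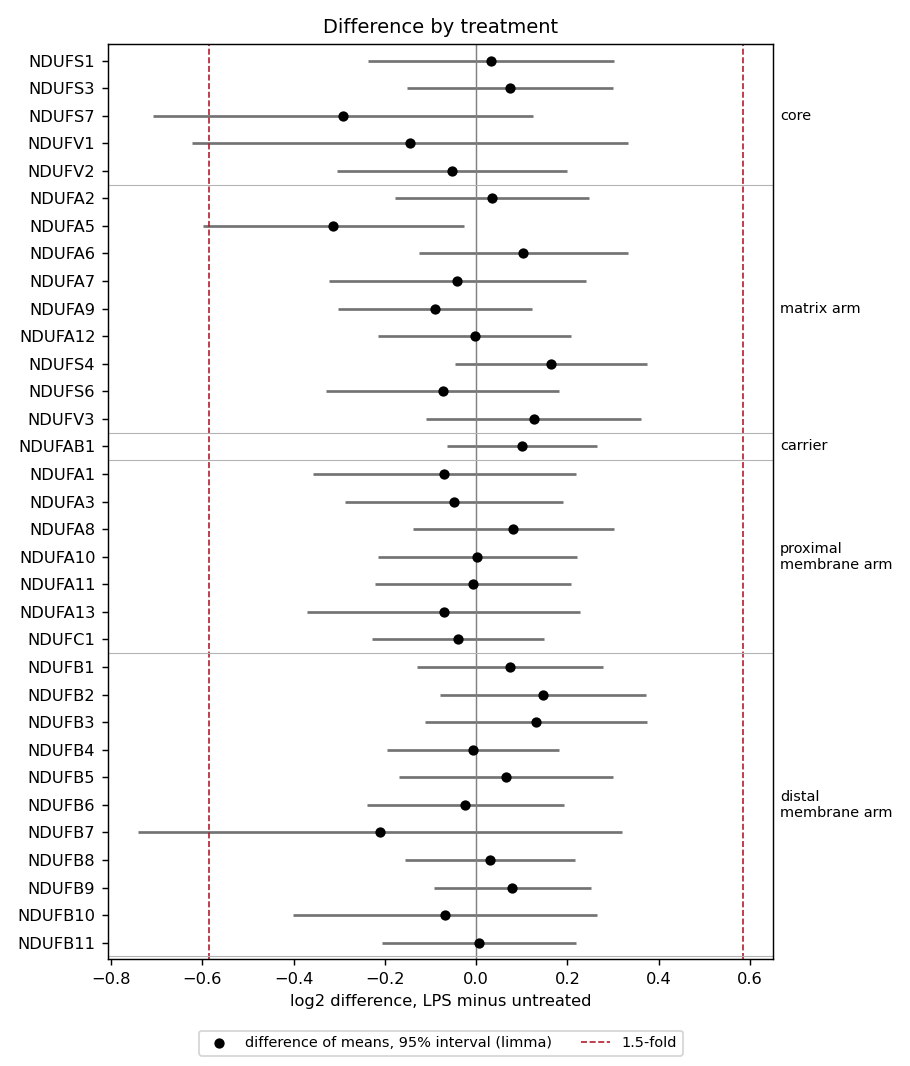
Difference of LPS minus untreated means (log2, points) with its 95% interval from the fit over all genes (bars) for each complex I gene, and dashed lines at 1.5-fold in either direction. Only the intervals of NDUFA5, NDUFB7, NDUFS7 and NDUFV1 cross a dashed line, and the interval of NDUFA5 alone leaves out 0.

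The differences of the 5 nuclear core subunits among the members had a median of -0.05. NDUFV1 carries the flavin that takes the electrons from NADH. Its log2 expression was 10.54 and 11.22 on the LPS arrays (replicates 1 and 2), against 10.91 and 11.14 on the untreated arrays. LPS replicate 1 was the lowest and LPS replicate 2 the highest, so that the untreated arrays lay between the treated ones. The ratio was 0.905 (95% interval 0.650 to 1.26).

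NDUFS7 carries the last iron-sulfur cluster of the chain, next to the ubiquinone site. It stood at 10.22 and 10.81 on the LPS arrays, against 10.76 and 10.85 on the untreated arrays. Only LPS replicate 1 stood apart, and the groups overlapped. The ratio was 0.817 (interval 0.612 to 1.09), and the log2 difference was -0.54 for the number 1 pair and -0.04 for the number 2 pair. The dimmer of its 2 probe sets, at a mean of 5.86, differed by 0.20 in the opposite direction.

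NDUFV2, an iron-sulfur protein beside NDUFV1, had 11.05 and 11.27 on the LPS arrays, against 11.27 and 11.14 on the untreated arrays. NDUFS1, the largest core subunit and the carrier of several iron-sulfur clusters, had 10.16 and 9.93 on the LPS arrays, against 10.05 and 9.97 on the untreated arrays. In both genes the untreated arrays were nested in or crossed the range of the treated ones. NDUFS3, a matrix arm core subunit with no cofactor of its own, had 10.71 and 10.72 on the LPS arrays, against 10.58 and 10.71 on the untreated arrays. Its groups did not overlap, though LPS replicate 1 and untreated replicate 2 were nearly level, and its difference was 0.07 ± 0.10 (SE). The probe sets of NDUFS1 did not move alike: the brightest differed by 0.03, the next 2 by -0.30 and -0.31, and the dimmest 2 by 0.10 and 0.04.

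The 9 accessory subunits of the matrix arm held the 2 members with the smallest p-values by treatment. NDUFA5, which sits on the part of the arm that binds ubiquinone, had 11.17 and 10.99 on the LPS arrays, against 11.53 and 11.24 on the untreated arrays. Both treated arrays lay below both untreated ones, with -0.37 for the number 1 pair and -0.26 for the number 2 pair. The ratio was 0.805 (interval 0.661 to 0.981), at an unadjusted p of 0.0357 and an adjusted p of 1 (limma). Its other probe set was dim, with a mean of 4.66, and differed by 0.09.

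NDUFS4, which fastens the NADH-oxidising module and is mutated in Leigh syndrome, had 10.88 and 10.86 on the LPS arrays, against 10.69 and 10.72 on the untreated arrays. The treated arrays lay above the untreated ones and hardly differed between themselves. The ratio was 1.12 (interval 0.968 to 1.30), at an unadjusted p of 0.111 and an adjusted p of 1 (limma). NDUFV3, a small subunit beside the flavin protein, differed by 0.13, and its second probe set by 0.18. NDUFA6, which belongs to the LYR family that binds acyl carrier protein, differed by 0.10. The other 5, NDUFA2, NDUFA7, NDUFA9, NDUFA12 and NDUFS6, differed by -0.09 to 0.03.

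NDUFAB1 is the mitochondrial acyl carrier protein, which also serves fatty acid synthesis. It had 12.99 on each LPS array, against 12.86 and 12.91 on the untreated arrays. The groups did not overlap, and the ratio was 1.07 (interval 0.957 to 1.20).

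The 7 measured accessory subunits of the proximal membrane arm had differences of -0.07 to 0.08, with a median of -0.04. NDUFA13, also known as GRIM-19, had 11.97 and 12.33 on the LPS arrays, against 12.13 and 12.31 on the untreated arrays. NDUFA8, a protein of the intermembrane space face with twin cysteine motifs, had 10.45 and 10.50 on the LPS arrays, against 10.39 and 10.40 on the untreated arrays. NDUFA8 alone of the 7 had arrays that did not overlap by treatment. NDUFA10, which has a nucleoside kinase fold, differed by 0.00, with 11.31 and 11.42 on the LPS arrays and the same rounded values on the untreated arrays. NDUFA1, NDUFA3, NDUFA11 and NDUFC1 differed by -0.07 to -0.01.

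The 11 accessory subunits of the distal membrane arm had a median difference of 0.03. NDUFB2 had 11.65 and 11.76 on the LPS arrays, against 11.47 and 11.64 on the untreated arrays, and its 2 brightest probe sets differed by 0.15 and 0.09. NDUFB3, a small protein with a single membrane span, had 10.85 and 10.66 on the LPS arrays, against 10.66 and 10.58 on the untreated arrays. In NDUFB2 both treated arrays were the higher ones, and in NDUFB3 LPS replicate 2 was level with untreated replicate 1 to 2 decimals. The treated means gave ratios of 1.11 for NDUFB2 (interval 0.947 to 1.29) and 1.10 for NDUFB3 (interval 0.925 to 1.30).

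NDUFB7, another twin-cysteine protein, had 8.54 and 9.31 on the LPS arrays, against 9.06 and 9.22 on the untreated arrays. The treated arrays spanned the untreated ones, and the interval of its ratio, 0.599 to 1.25, was the widest of the members. NDUFB10, a twin-cysteine protein as well, had 11.44 and 11.90 on the LPS arrays, against 11.70 and 11.77 on the untreated arrays, with the same nesting. NDUFB9, a LYR protein, had 12.60 and 12.58 on the LPS arrays, against 12.49 and 12.54 on the untreated arrays, which did not overlap. NDUFB1, NDUFB4, NDUFB5, NDUFB6, NDUFB8 and NDUFB11 differed by -0.02 to 0.07.

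Members differed more often by replicate number than by treatment, as genes did in general. The difference by number exceeded the difference by treatment for 21 of the 33 members (63.6%), against 60.0% of all genes. Arrays numbered 2 were higher than those numbered 1 for 26 members (78.8%), against 62.3% of all genes, with a median of 0.07 against 0.04. The arrays did not overlap by number for 20 members (60.6%), against 49.1% of all genes: 15 were higher on the arrays numbered 2 (45.5%, against 32.6%) and 5 lower (15.2%, against 16.5%). Without probe sets of suffix _x_at or _s_at, 11 of the 27 members left did not overlap by number (40.7%), against 47.1% of all genes. No member passed the adjusted test (limma with treatment as a second term, smallest adjusted p = 0.216), where 0% of all genes passed. At an unadjusted p under 0.05 there were 8 members, or 24.2% against 18.1% of all genes: 6 higher on the arrays numbered 2 (10.8% of all genes) and 2 lower (7.33%). All 33 members lay above the median level over genes. Among the 9888 genes at or above that level, 25.1% were under this unadjusted p (limma), and 53.9% did not overlap by number. After quantile normalization 4 members, NDUFA13, NDUFB7, NDUFS7 and NDUFV1, passed the adjusted test (limma), all higher on the arrays numbered 2. That was 12.1% of members, against 3.6% of all genes in either direction, 2.29% higher and 1.3% lower.

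**Figure D4:**
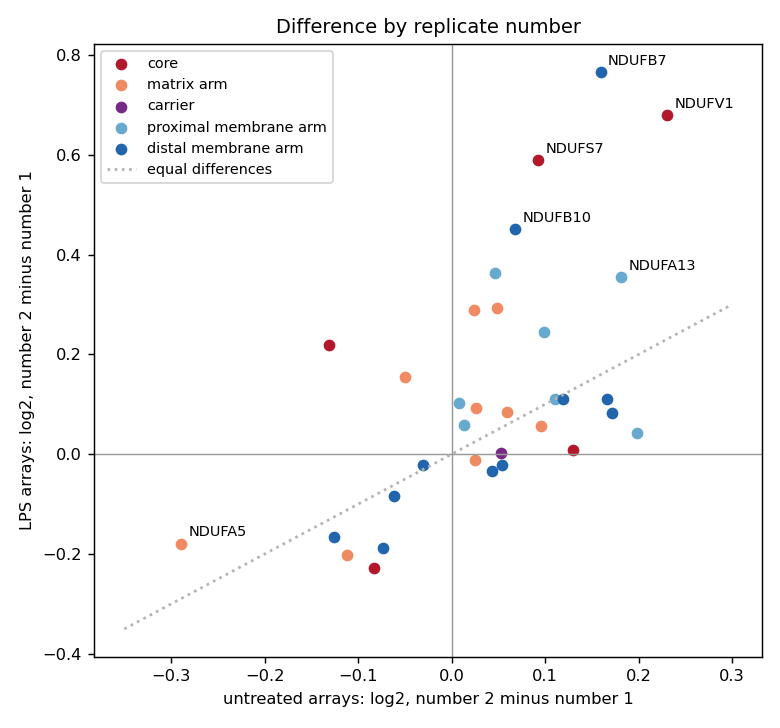
Log2 difference of replicate number 2 minus number 1 on the LPS arrays (vertical axis) and on the untreated arrays (horizontal axis) for each complex I gene, coloured by place in the complex, with a dotted line where both are equal. NDUFB7, NDUFV1, NDUFS7 and NDUFB10 lie far above the line, and the points lean to the upper right (r = 0.58 over 33 genes).

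The named members with the largest difference by number came from different parts of the complex. NDUFB7 averaged 0.46 higher on the arrays numbered 2 and NDUFV1 0.46, or ratios of 1.38 and 1.37 of number 2 over number 1. NDUFS7 was 0.34 higher, NDUFA13 0.27 and NDUFB10 0.26. NDUFA5 went the other way at -0.23, with -0.18 on the LPS arrays and -0.29 on the untreated arrays. Of the other members, NDUFA3 (0.17) and NDUFA6 (-0.16) were also under an unadjusted p of 0.05 (limma, adjusted p = 0.264 and 0.268).

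For most of these genes the difference by number was larger between the LPS arrays. Between the LPS arrays, number 2 minus number 1 was 0.77 for NDUFB7, 0.68 for NDUFV1, 0.59 for NDUFS7 and 0.45 for NDUFB10. Between the untreated arrays the same differences were 0.16, 0.23, 0.09 and 0.07. LPS replicate 1 was the lowest array for 13 of the 33 members (39.4%, against 30.2% of all genes), and LPS replicate 2 the highest for 19 (57.6%, against 39.4%). Untreated replicate 1 was the lowest for 12 (36.4%, against 31.9%).

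Both treatments gave the same sign for 28 of 33 members, 21 higher and 7 lower on the arrays numbered 2. The share of all genes with the same sign was not counted, so this number has no background beside it. Across the 33 members the difference by number between the LPS arrays and that between the untreated arrays had r = 0.58, and over all genes r = 0.44. These points share their arrays and normalization and are given as a description. The 18S ribosomal RNA control probe sets also split by number, at 7.98 (LPS) and 8.12 (untreated) on the arrays numbered 2, against 9.89 and 10.07 on those numbered 1. So did the poly-A control probe sets, at 7.53 (LPS) and 7.62 (untreated) on the arrays numbered 2, against 8.15 and 8.67. The 3′ minus 5′ log2 signal of ACTB was 0.76 (LPS) and 0.94 (untreated) on the arrays numbered 2, against 1.04 and 1.09 on those numbered 1. That of GAPDH did not split by number, at 0.36 (LPS) and 0.36 (untreated) on the arrays numbered 2, against 0.39 and 0.26. Their part in the result was not tested.

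Other genes of the respiratory chain were taken from fixed lists, and none passed the adjusted test by treatment or by number. Of the 16 complex I assembly factors, 11 lay above 0 by treatment (68.8%, against 56.5% of all genes), with a median of 0.06. NDUFAF2, a paralogue of NDUFA12 that acts late in assembly, had 10.67 and 10.71 on the LPS arrays, against 10.53 and 10.46 on the untreated arrays. NDUFAF3, an early-acting factor, had 10.04 and 9.88 on the LPS arrays, against 9.75 and 9.77 on the untreated arrays. Both lay above the untreated arrays without overlap, with differences of 0.19 and 0.20. By number, 3 of the 16 assembly factors were higher on the arrays numbered 2, with a median of -0.06, beside 26 of 33 subunits with a median of 0.07.

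Of the mitochondrially encoded subunits, 3 of 7 were measured. ND2 and ND4, proton-pumping subunits, differed by -0.21 and -0.19 by treatment, and both were lowest on LPS replicate 1. ND2 had 13.53 and 13.86 on the LPS arrays, against 13.98 and 13.82 on the untreated arrays. ND6, another membrane arm subunit, had 9.37 and 8.38 on the LPS arrays, against 9.14 and 8.49 on the untreated arrays. It differed by 0.06 by treatment and by -0.82 by number.

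The 35 measured subunits of complexes II to V had 17 differences above 0 and 18 below by treatment, close to the 16 and 17 of complex I. By treatment 48.6% of the 35 lay above 0, against 56.5% of all genes. By number, 28 of the 35 were higher on the arrays numbered 2 (80.0%), beside 78.8% of complex I subunits. UQCRC1, a core protein of complex III, and ATP5F1D of ATP synthase, both chosen after their values were seen, each differed by 0.38 by number. By treatment the largest differences among the 35 were -0.33 for COX7B of complex IV, -0.20 for COX5B of complex IV and -0.19 for UQCRB of complex III. COX7B had 11.27 and 11.90 on the LPS arrays, against 11.97 and 11.85 on the untreated arrays, again lowest on LPS replicate 1.

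**Figure D5:**
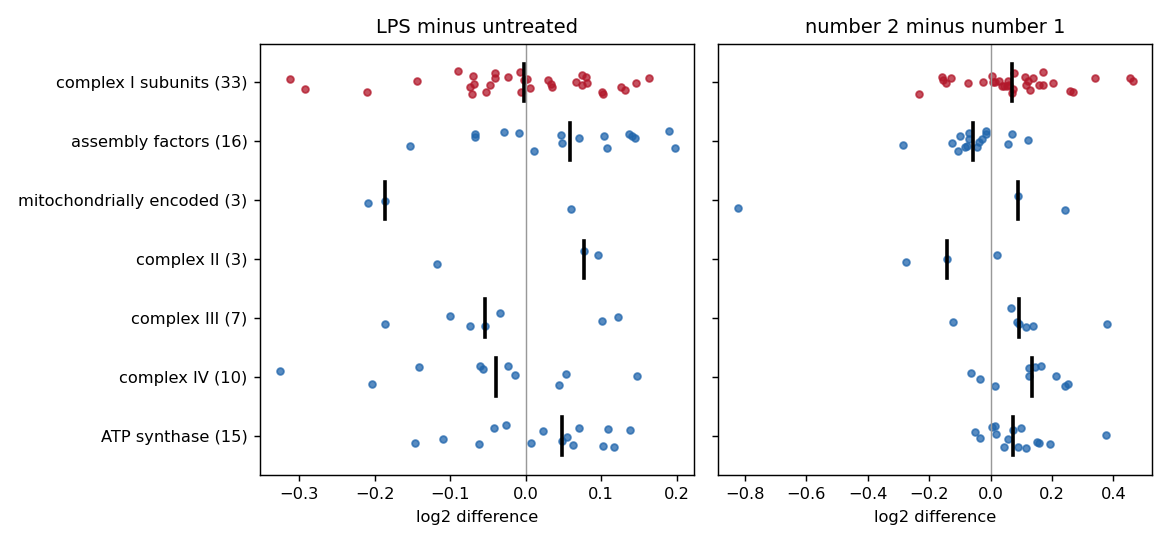
Log2 differences of single genes (points, spread vertically for sight) with the median of each list (black bar), by treatment on the left and by replicate number on the right, for complex I subunits (red) and the other lists (blue, number of genes in brackets). By number the assembly factors lie mostly left of 0 (median -0.06) and the complex I subunits mostly right of it (median 0.07).

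Of the 10 regulators of mitochondrial gene expression, 4 lay above 0 by treatment (40%, against 56.5% of all genes). YY1 had 13.19 and 13.14 on the LPS arrays, against 13.39 and 13.25 on the untreated arrays, a difference of -0.16 ± 0.08 (SE) without overlap. TFAM, which packages and transcribes mitochondrial DNA, had 11.43 and 11.34 on the LPS arrays, against 11.69 and 11.46 on the untreated arrays, a difference of -0.19 ± 0.10 (SE). NRF1 differed by -0.01 and GABPA by -0.17. None of these passed (limma, adjusted p = 1 for each). PPARGC1A, encoding a coactivator of mitochondrial biogenesis, lay below the median over genes at 4.80 to 5.01.

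Besides the 33 probe sets that stood for the genes, 29 others measured 19 of the members, and 21 of the 29 lay below the median over genes. Their differences by treatment ran from -0.31 to 0.20, and 13 of the 29 had the sign of the brightest probe set of the gene. By number they ran from -0.89 to 0.29, and 21 of the 29 had that sign. The lowest was a probe set of NDUFS1 with a mean of 6.97, followed by one of NDUFB1 at -0.51, whose brightest probe set differed by 0.13. The second NDUFS7 probe set differed by -0.07, against 0.34 for the brightest. Among those of equal sign, the second NDUFV1 probe set differed by 0.29, and the second NDUFB7 probe set, at a mean of 5.93, by 0.04. The second NDUFB10 probe set differed by 0.14 and the second NDUFA11 probe set by 0.24.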

How the data were processed

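Gene expression was measured on 4 single-channel Affymetrix arrays hybridised with biotin-labelled cRNA, per the labels' protocols. The authors deposited log2 values for 54675 probe sets. Per the submitters' processing notes MAS5 and RMA were used, with roles and settings not given in the sources used here. The values have the form of RMA output, which compresses differences of dim probe sets. Precision is limited by how few arrays there are.

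No further normalization was applied to the deposited values. Of the probe sets, 41091 had 1 gene symbol, 1801 several and 11721 none; 62 controls and those without a single symbol were left out. limma 3.58.1 in R 4.3.3 (lmFit, eBayes with an intensity trend, two-sided) was fitted over all 19775 genes, by treatment without a covariate, and by replicate number with treatment as a term. Benjamini-Hochberg adjustment ran over all genes, with a threshold of 0.05. With 2 arrays against 2, an exact permutation test cannot give a p under 0.333. Figures used matplotlib 3.10.9.

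Members and lists were chosen with earlier results of these data known. Array values are given in full for the core subunits, the 6 members with the largest statistic by treatment, the 6 with the largest difference by number and the 3 whose probe sets differed most; of other lists, for up to 2 genes, and further genes were chosen after their values were seen. Alternatives were quantile normalization, a level filter, averaging a gene's probe sets, dropping those with the suffix _x_at or _s_at, no trend, a replicate block, no treatment term, other promoter windows and each array left out.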

Additional observations from a re-analysis of the deposited data

How the results depend on the processing

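Of the 10 alternatives by treatment, those that kept all 4 arrays called 0 members and 0 genes. By number 4 of 9888 genes passed with the level filter, 2 of 19775 with averaged probe sets and 6 without the treatment term. None of these was a member. Without _x_at or _s_at probe sets, and without the trend, 0 genes passed by number. Members were called by number only after quantile normalization. There, 4 members were called higher on the arrays numbered 2 (limma: NDUFV1, adjusted p = 0.0192; NDUFA13, 0.0352; NDUFB7, 0.0403; NDUFS7, 0.0493), or 12.1% of members against 3.6% of all genes, and the median by number was 0.11. The cause was not tested. Without _x_at or _s_at probe sets, 27 members were left, of which 11 did not overlap by number (40.7%, against 47.1% of all genes). Leaving out 1 array moved the median by treatment between -0.028 and 0.068, the higher value without LPS replicate 1, and gave 16 to 27 members without overlap by treatment, where 1 array against 2 separates more easily. The highest count was 81.8% of members against 72.5% of all genes (without LPS replicate 1), and the lowest 48.5% against 56.6% (without untreated replicate 1). Without LPS replicate 2 the median by treatment was -0.028. Among the core subunits and the 6 members with the largest statistic by treatment, differences then ran from -0.59 for NDUFS7 to 0.22 for NDUFB3. In each fit with 1 array left out, the lone array is assumed to vary like the other group. By number no array could be left out in the test, for lack of residual degrees of freedom.

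Single differences by treatment changed sign without _x_at or _s_at probe sets for NDUFS1 (-0.30) and NDUFS7 (0.20, and -0.070 by number), and with the mean of probe sets for NDUFS1 (-0.087). With 1 array left out, NDUFS1 ran from -0.081 to 0.15, NDUFS7 from -0.59 to 0.0024, NDUFV1 from -0.48 to 0.19 and NDUFV2 from -0.16 to 0.057. NDUFA5 kept its sign in all 10 alternatives, between -0.46 and -0.11.

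Deviations from the group means correlated between arrays of equal number (r = 0.44 over all genes), which rests on 2 pairs. With 2 arrays in each group this is the same statistic as the r over all genes given above for the differences by number, not a further observation. Whether equal numbers mark a shared experiment was not tested. With the replicate block, 0 members and 0 of all 19775 genes were called by treatment. There, 2 of the 33 members were under an unadjusted p of 0.05 (limma), against 1487 of 19775 genes (7.52%). YY1 letters were in 3 members before the start (9.68%, against 4.21% of the genes on the arrays). A window of the 50 bases after it was added after seeing the data. There, NRF1 letters were in 2 members (6.45%, against 1.8% of the genes on the arrays). ETS letters were in 0 members, against 3.26% of the genes on the arrays.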
